A study of Mus musculus with 6 samples.

Results

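The heat shock chaperones of the cytosol and mitochondria described here are 10 genes: Hspa1a, Hspa1b, Dnajb1, Dnaja1, Hsph1, Hsp90aa1, Hsp90ab1, Hspa8, Hspd1 and Hspe1. All probe sets that the platform's annotation assigns to a listed symbol were taken, which gave 23 probe sets for 9 of the genes, out of 45101 probe sets and 18193 named genes on the array. Hsp90ab1 was not analysed here. Their mRNA was measured in regulatory T cells (Treg), CD4 T cells defined by the transcription factor Foxp3, sorted from the mesenteric lymph nodes of 4 to 6 week old mice. The first group, iTreg, holds 3 arrays of Foxp3+ CD4+ cells from Balb/c TBmc Foxp3 GFP mice given ovalbumin by mouth at 1% for 1 week, with a cell type label negative for Nrp. All T cells of TBmc mice share 1 receptor, which recognises ovalbumin, and their B cells share another, since these mice lack recombinase. The second group, WT Treg, holds 3 arrays of the total Foxp3+ CD4+ cells of Balb/c Wild Type Foxp3 GFP mice. The groups differ in genotype, receptor, diet and gate at once, and these cannot be told apart.

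The labels of 2 arrays leave a doubt about their group. For iTreg replicate 1 the strain is given without TBmc, and WT Treg replicate 1, titled total Treg, has the Nrp-negative cell type label. The labels name no mice or pools, so p-values cover only the variation of these arrays, possibly a technical one. Signals are MAS5 intensities on a linear scale, brought to a common level per array before deposit. To gauge background, 27 controls for bacterial genes that were not spiked in were read, and their highest signal was 28.5. Of 9 measured T and Treg cell markers 8 lay above that level on every array, with summed signals of 20094 to 22590.0 in iTreg and 23208 to 30998 in WT Treg. Foxp3 itself, on a single probe set, had 31.7, 54.6 and 15.6 in iTreg, against 26.2, 45.7 and 9.16 in WT Treg, close to those controls, although the cells were sorted by a Foxp3 reporter. In sorted populations, fewer cells of a kind and less RNA per cell cannot be told apart.

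Heat shock proteins fold new proteins and rescue damaged ones. Hsp70 chaperones bind exposed hydrophobic stretches in a cycle driven by ATP, J-proteins (Hsp40) deliver substrates to them, and Hsp110 proteins exchange their nucleotide. Hsp90 completes the folding of kinases and receptors, and Hsp60 with its lid Hsp10 encloses proteins in the mitochondrial matrix. Under stress the transcription factor HSF1 binds heat shock elements, arrays of the unit GAA in alternating orientation, and induces these genes. Hspa8 and Hsp90ab1 are abundant in unstressed cells, whereas Hspa1a and Hspa1b are the strongly inducible Hsp70 genes. In T cells chaperone transcripts also change with activation.

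The upstream sequence of 4 members is shown because these had the widest spread between arrays of a group and because heat shock elements lie upstream of such genes. Sequences are from RefSeq on GRCm38.p6 and cover the 250 bases before the annotated start, 5′ to 3′ on the gene's strand. Hspa1b lies at chr17:34959239-34959488 (minus strand) and Hspa1a at chr17:34972157-34972406 (minus strand), with start sites 12918 bases apart. Hspe1 lies at chr1:55087898-55088147 (plus strand) and Hsph1 at chr5:149636316-149636565 (minus strand). Capitals mark matches to GAANNTTC or TTCNNGAA, a pair of adjoining heat shock units, including the longer runs GAANNTTCNNGAA and TTCNNGAANNTTC. The first pair read the same on both strands, the longer runs are the reverse complement of each other, and longer runs contain the shorter motifs.
Hspa1b: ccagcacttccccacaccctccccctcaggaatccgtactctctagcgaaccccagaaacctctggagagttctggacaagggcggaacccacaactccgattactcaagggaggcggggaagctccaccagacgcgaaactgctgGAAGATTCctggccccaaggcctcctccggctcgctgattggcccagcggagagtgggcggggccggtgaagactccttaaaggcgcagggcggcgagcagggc
Hspa1a: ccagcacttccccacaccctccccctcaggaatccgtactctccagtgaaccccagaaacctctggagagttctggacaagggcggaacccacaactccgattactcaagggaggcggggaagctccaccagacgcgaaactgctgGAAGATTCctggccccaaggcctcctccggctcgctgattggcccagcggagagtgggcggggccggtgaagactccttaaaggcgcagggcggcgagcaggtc
Hspe1: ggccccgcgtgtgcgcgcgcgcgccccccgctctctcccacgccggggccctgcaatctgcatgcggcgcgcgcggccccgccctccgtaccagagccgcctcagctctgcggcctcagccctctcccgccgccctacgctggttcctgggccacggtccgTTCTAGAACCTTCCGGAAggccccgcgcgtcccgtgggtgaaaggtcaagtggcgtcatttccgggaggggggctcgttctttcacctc
Hsph1: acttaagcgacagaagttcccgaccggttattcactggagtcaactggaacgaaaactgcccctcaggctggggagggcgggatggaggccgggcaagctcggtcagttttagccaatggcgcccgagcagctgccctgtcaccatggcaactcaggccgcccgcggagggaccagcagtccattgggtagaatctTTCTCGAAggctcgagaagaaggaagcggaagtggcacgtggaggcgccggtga

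The Hspa1b and Hspa1a windows were equal at 247 of 250 positions (98.8%) and differed by T44C, C47T and G249T, written as the Hspa1b base, the position from 1 at the 5′ end, and the Hspa1a base. Both hold a single match, which starts 104 bases before the start site. Hspe1 and Hspd1, which encode the partners Hsp10 and Hsp60, are transcribed away from each other from annotated starts 216 bases apart, and the same stretch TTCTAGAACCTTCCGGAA lies between them. The 7 members found in the table have 12 windows, since some have several annotated starts. The longer motif was present in 2 of the 12, 1 each of Hspd1 and Hspe1, and in 0.466% of 32851 upstream windows of this length. The shorter motif was present in 7 of the 12 and in 12.8% of all windows, and every member but Dnajb1 had it in at least 1 window. These windows are not independent. Both Hsph1 windows overlap and hold the same match, Hspd1 and Hspe1 share a stretch, and the Hspa1a and Hspa1b windows are nearly identical. The counts are therefore not a measure of enrichment. These matches describe the letters and do not show binding.

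The clearest pattern of the chaperones was a spread between arrays of the same group, not a difference between the groups. Of 9 measured members, limma called 0 higher and 0 lower in iTreg with Benjamini-Hochberg adjustment over 10916 genes at a threshold of 0.05, against a background of 0.0275% of all genes called (0 higher and 3 lower, or 1 higher and 7 lower when arrays were brought to the same median). At an unadjusted p under 0.05 there was 1 member, Hspa1b, where 7.59% of all genes passed. In no member did the groups separate fully, whereas they did in 12.9% of all genes (5.1% higher and 7.78% lower). The median difference of the members, iTreg minus WT Treg, was -0.01 on the log2(signal + 16) scale, and -0.03 over all genes. It was above 0 in 4 members and below 0 in 5, and above 0 in 47.2% of all genes. The added 16 understates differences of low signals. Values below refer to the probe set with the highest mean unless another is named.

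**Figure D1:**
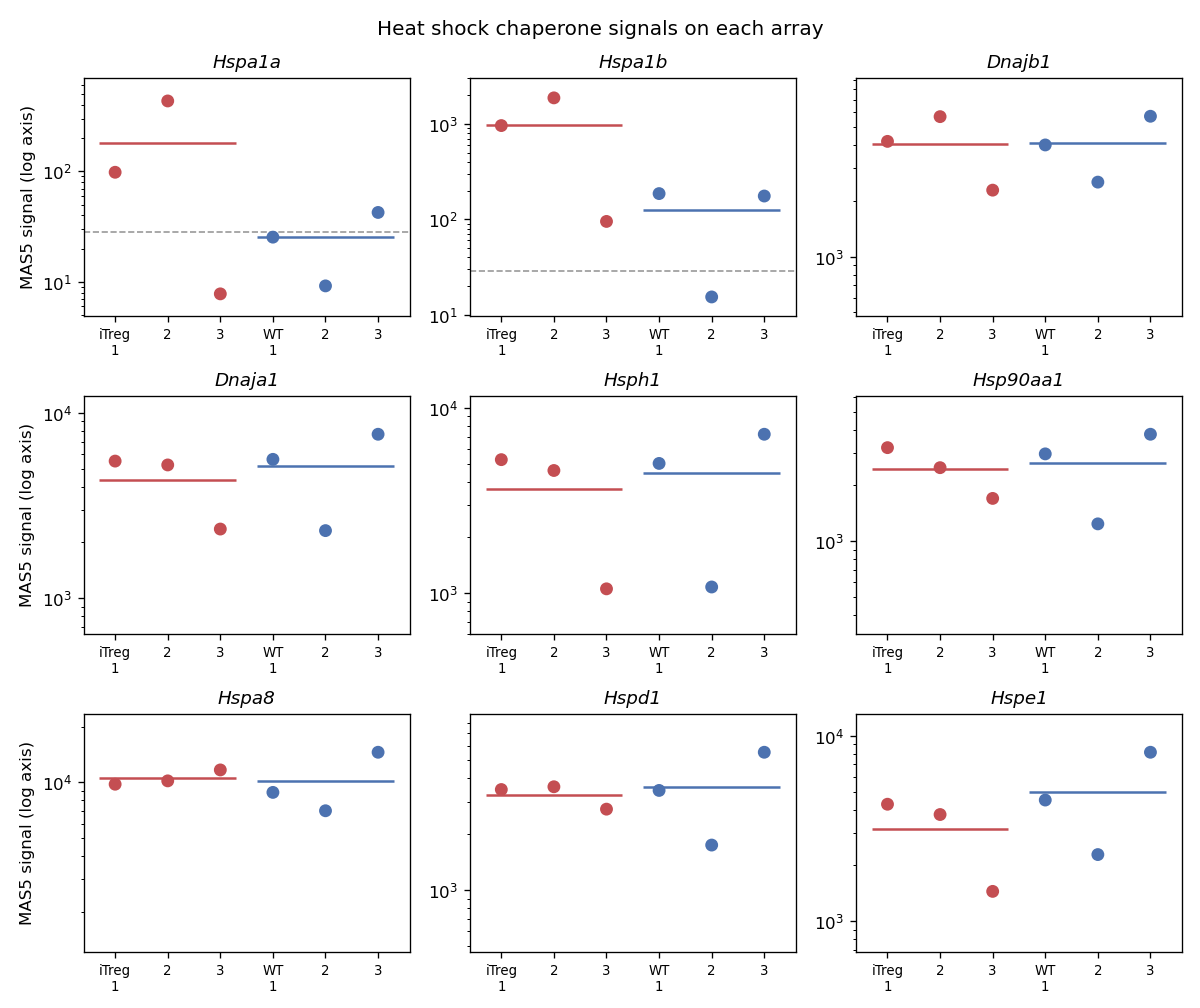
MAS5 signal (log axis, a scale for each gene) of 9 chaperone genes on each of 3 iTreg arrays (red, left) and 3 WT Treg arrays (blue, right); lines are group means and the dashed line is the highest unspiked control, 28.5. iTreg replicate 3 lies below both other iTreg arrays in 8 of 9 genes, and WT Treg replicate 2 below both other WT Treg arrays in all 9.

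The inducible Hsp70 genes had the largest differences of the members and the widest spread. Hspa1b, on probe set 1452318_a_at, had signals of 961, 1875 and 95.001 in iTreg replicates 1, 2 and 3, against 186, 15.3 and 175 in WT Treg replicates 1, 2 and 3. The first 2 iTreg arrays stood above every WT Treg array, while iTreg replicate 3 lay below WT Treg replicates 1 and 3, so the groups overlapped. Its mean signal was 977 ± 890.1 in iTreg and 126 ± 95.6 in WT Treg (SD, n = 3 each). The log2 difference was 2.47 with a standard error of 0.93 and a 95% interval of 0.44 to 4.49 (limma adjusted p = 0.598). The highest array exceeded the lowest 19.7-fold within iTreg and 12.1-fold within WT Treg, although the lowest WT Treg signal lay within the range of the unspiked controls.

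The size of the Hspa1b difference depended on the probe set and on single arrays. Probe set 1427127_x_at had 151, 539 and 12.9 in iTreg, against 91.2, 24.1 and 48.7 in WT Treg. Probe set 1427126_at had 105, 484 and 6.52 in iTreg, against 75.9, 49.1 and 59.0 in WT Treg. Their log2 differences were 1.09 and 0.53, and on each of these probe sets iTreg replicates 1 and 2 lay above all WT Treg arrays and iTreg replicate 3 below all of them. The signals of iTreg replicate 3 on both, and of WT Treg replicate 2 on 1427127_x_at, were within the range of the unspiked controls, so these differences and the order of the low arrays are not exact. Without iTreg replicate 3 the Hspa1b difference was 3.67 (limma adjusted p = 0.139), without iTreg replicate 2 it was 1.63 and without WT Treg replicate 2 it was 1.58. It was 2.56 without both arrays with label doubts.

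Hspa1a, its near-identical neighbour, had signals of 98.3, 435 and 7.80 in iTreg replicates 1, 2 and 3, against 25.4, 9.21 and 42.5 in WT Treg. Again iTreg replicates 1 and 2 were above all WT Treg arrays and iTreg replicate 3 was the lowest of the 6. The log2 difference was 1.44 with a standard error of 0.81 and an interval of -0.33 to 3.22 (limma adjusted p = 0.721). Without iTreg replicate 2 it was 0.40, and without iTreg replicate 3 it was 2.53. The signals of iTreg replicate 3 and of WT Treg replicates 1 and 2 lay within the range of the unspiked controls. Probe sets of these close copies may measure both transcripts, so their separate values are uncertain.

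For the J-proteins, which hand substrates to Hsp70, the differences were smaller than their errors. Dnajb1, the J-protein induced together with Hsp70 by heat, had 4183, 5686 and 2283 in iTreg replicates 1, 2 and 3, against 4001, 2522 and 5713 in WT Treg. Each group held 1 array well below its others, and the 2 highest signals came from different groups. Its difference was -0.03, with SE 0.38 (limma adjusted p = 0.989), and on its dimmer probe set 1416756_at, with 594, 744 and 93.8 in iTreg against 598, 196 and 508 in WT Treg, it was -0.14. Dnaja1, a J-protein with a farnesylated end, had 5495, 5238 and 2363 in iTreg, against 5615, 2318 and 7667 in WT Treg. Its difference was -0.18 (limma adjusted p = 0.950), with 0.21 and -0.37 on its other probe sets.

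Hsph1, the Hsp110 nucleotide exchange factor, had the third largest spread of the members. Its signals were 5253, 4591 and 1056 in iTreg replicates 1, 2 and 3, against 5012, 1081 and 7199 in WT Treg. The lowest arrays of the groups, 1056 and 1081, were nearly level, and the other 4 arrays had 4591 or more. The difference was -0.20 with a standard error of 0.68 and an interval of -1.69 to 1.28 (limma adjusted p = 0.966), so a change of more than 2-fold either way lies within its error. The second probe set, 1423566_a_at, ran from 785 to 3165 in iTreg and from 521 to 3826 in WT Treg, with the same array lowest in each group.

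Hsp90aa1, the inducible Hsp90, had 3196, 2492 and 1702 in iTreg replicates 1, 2 and 3, against 2958, 1241 and 3774 in WT Treg. Its difference was -0.01 with an interval of -0.87 to 0.85 (limma adjusted p = 0.994). Of its 5 probe sets, 1437497_a_at differed by 0.02 and 1426645_at by -0.61. On 1426645_at the signals were 2701, 2881 and 536 in iTreg, against 3497, 925 and 4621 in WT Treg. The remaining 2, 1441827_x_at with 18.3 to 39.4 and 1433251_at with 1.73 to 11.9 over the 6 arrays, were near background. The second of these was below the level filter and is the only one of the 23 probe sets that was not tested.

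Hspa8, the constitutive Hsp70, was the steadiest member on its probe set with the highest mean. Its signals were 9776, 10191 and 11673.5 in iTreg replicates 1, 2 and 3, against 8832, 7032 and 14536.5 in WT Treg. It was the single member in which iTreg replicate 3 was not the lowest iTreg array, and the difference was 0.12, with SE 0.30 (limma adjusted p = 0.951). Its other probe sets did place iTreg replicate 3 lowest: 1420622_a_at had 8581, 8745 and 5494 in iTreg against 8619, 5086 and 11422 in WT Treg. Probe set 1431182_at stood apart with 977, 1930 and 801 in iTreg against 948, 262 and 326 in WT Treg, a difference of 1.37 with an interval of 0.37 to 2.37 (limma adjusted p = 0.622 over 20967 probe sets). On it, WT Treg replicate 1 lay between the iTreg arrays.

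The mitochondrial pair differed in how far the iTreg arrays spread. Hspd1, which encodes the Hsp60 chamber, had 3486, 3608 and 2733 in iTreg replicates 1, 2 and 3, against 3447, 1750 and 5538 in WT Treg, a difference of 0.01 (limma adjusted p = 0.994). Its iTreg arrays lay within a 1.32-fold range and its WT Treg arrays within a 3.16-fold range. Hspe1, which encodes the Hsp10 lid, had 4274, 3761 and 1449 in iTreg, against 4502, 2288 and 8148 in WT Treg. Its difference was -0.61, with SE 0.48 (limma adjusted p = 0.811). The other Hspe1 probe set, 1422579_at, had 743, 761 and 204 in iTreg against 1278, 653 and 1910 in WT Treg, a difference of -1.23 with an interval of -2.31 to -0.15 (limma adjusted p = 0.705 over all probe sets).

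**Figure D2:**
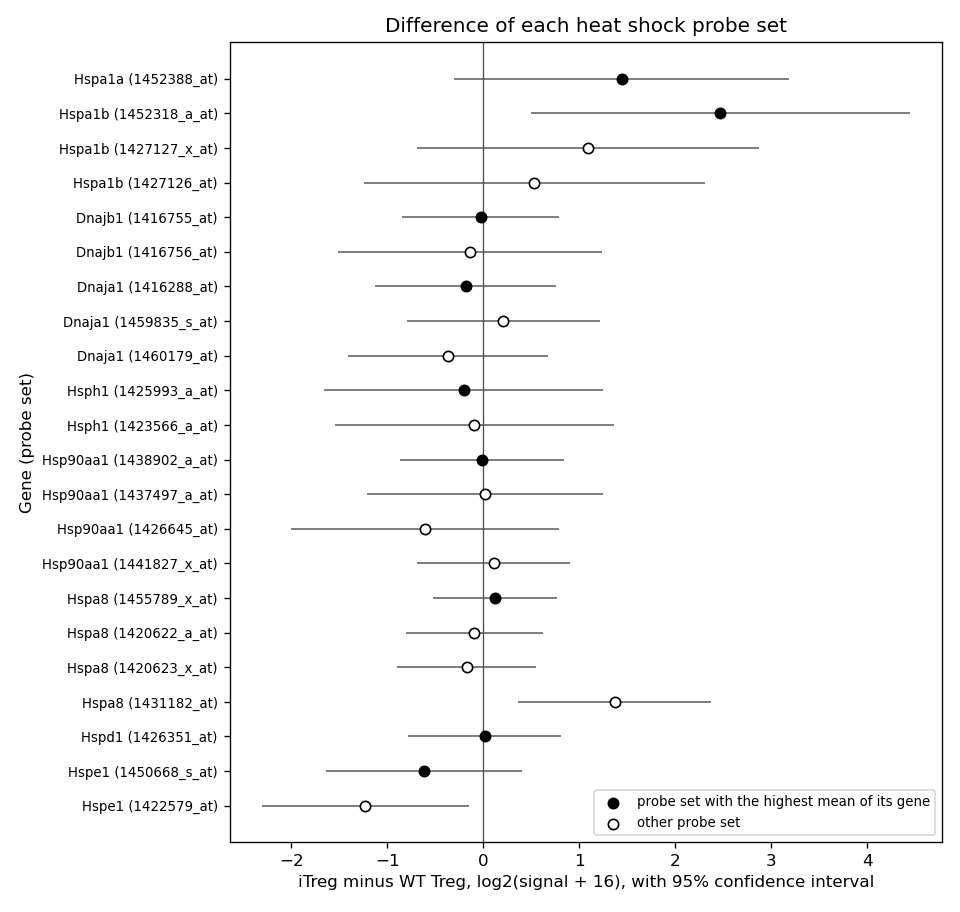
Difference of each of 22 tested probe sets, iTreg minus WT Treg on the log2(signal + 16) scale, with its 95% confidence interval; filled points are the probe set with the highest mean of its gene. Of the probe sets, 10 lie above 0 and 12 below, and the intervals of 1 probe set each of Hspa1b, Hspa8 and Hspe1 leave out 0 before adjustment.

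Over all probe sets, limma called 0 of the 22 after adjustment, against a background of 0.0191%, and 3 had an unadjusted p under 0.05, where 6.77% of all probe sets did. These were the Hspa1b set 1452318_a_at and the Hspa8 set 1431182_at, both higher in iTreg, and the Hspe1 set 1422579_at, lower in iTreg. The groups overlapped on each of the 22, while they did not in 12% of all probe sets. The intervals of the differences are wide, so similar levels in the groups are not shown.

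The spread within groups was larger for the chaperones than for most genes. The within-group SD on the log2 scale was 1.86 for Hspa1b, 1.56 for Hspa1a and 1.36 for Hsph1, against a median of 0.44 and a 90th percentile of 0.79 over all genes tested. Low signals near the controls make the SDs of Hspa1a and Hspa1b depend on the added 16. A single gene, Fos, named here after its value was seen, had a larger SD than Hspa1b, and 19 had a larger one than Hspa1a. Hspe1 had an SD of 0.88, Dnaja1 0.79, Hsp90aa1 0.67, Dnajb1 0.63 and Hspd1 0.61. Hspa8, at 0.39 on its probe set with the highest mean, was below the median of all genes. Its probe set 1431182_at spread more, 2.41-fold within iTreg and 3.62-fold within WT Treg, against 1.19-fold and 2.07-fold on the set used.

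**Figure D3:**
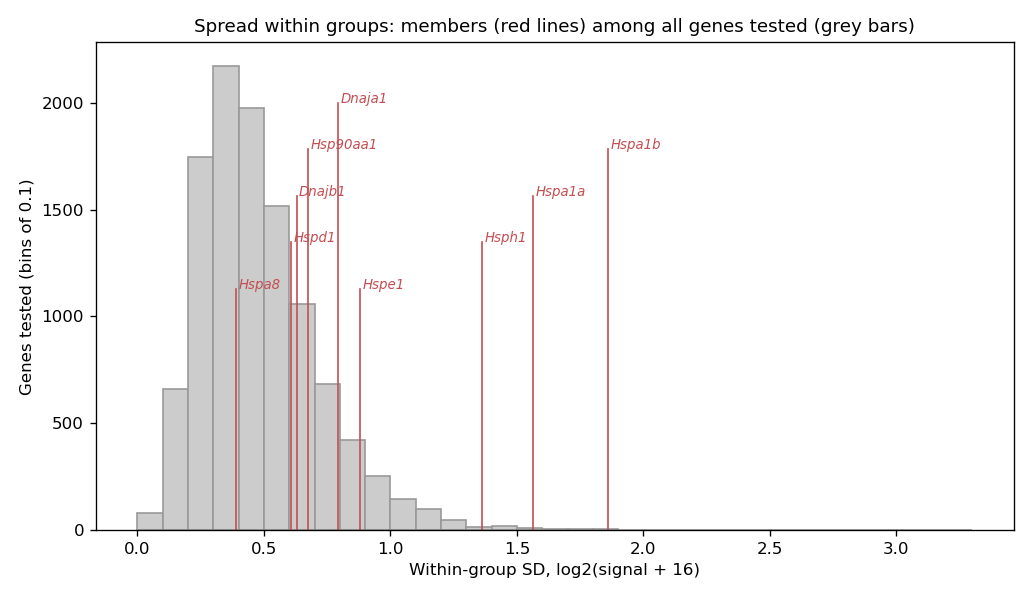
Number of genes tested (grey bars, bins of 0.1) by within-group SD on the log2(signal + 16) scale. Red lines are the 9 members, each on its probe set with the highest mean, and their heights carry no value. Hspa1b (1.86), Hspa1a (1.56) and Hsph1 (1.36) lie in the thin right tail, and Hspa8 (0.39) lies left of the median of 0.44.

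The spread followed the arrays. iTreg replicate 3 was the lowest iTreg array in 8 of 9 members, where this held in 39.8% of all genes, and WT Treg replicate 2 was the lowest WT Treg array in 9 of 9, where it held in 29.9%. Both held in 8 members and in 12.7% of all genes, and in 20 of the 22 probe sets against 12.4% of all probe sets. In the same 8 members these arrays were also the lowest pair of all 6 arrays, as in 6.33% of all genes. These arrays were singled out after their values were seen, the members are not independent of each other, and the counts are a description with no test.

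The drop had different sizes by member. iTreg replicate 3 differed from the mean of the other iTreg arrays by -3.61 for Hspa1b, -3.25 for Hspa1a, -2.20 for Hsph1, -1.46 for Hspe1, -1.18 for Dnaja1, -1.09 for Dnajb1, -0.72 for Hsp90aa1, -0.37 for Hspd1 and 0.23 for Hspa8, with a median of -0.04 over all genes. WT Treg replicate 2 differed from the other WT Treg arrays by -2.65 for Hspa1b, -2.46 for Hsph1, -1.49 for Dnaja1, -1.42 for Hsp90aa1, -1.40 for Hspe1, -1.31 for Hspd1, -0.97 for Hspa1a, -0.92 for Dnajb1 and -0.69 for Hspa8, with a median of 0.03 over all genes. Both Hspa1a and Hspa1b have low signals within the control range, where the added 16 sets the size of the difference, so they are not ranked against each other. On the probe set used here Hspa8 had the smallest deficit or none, but on its other probe sets iTreg replicate 3 was the lowest iTreg array. At the high end, WT Treg replicate 3 was the highest of the 6 arrays in 7 members, and iTreg replicate 2 in the other 2, Hspa1a and Hspa1b.

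**Figure D4:**
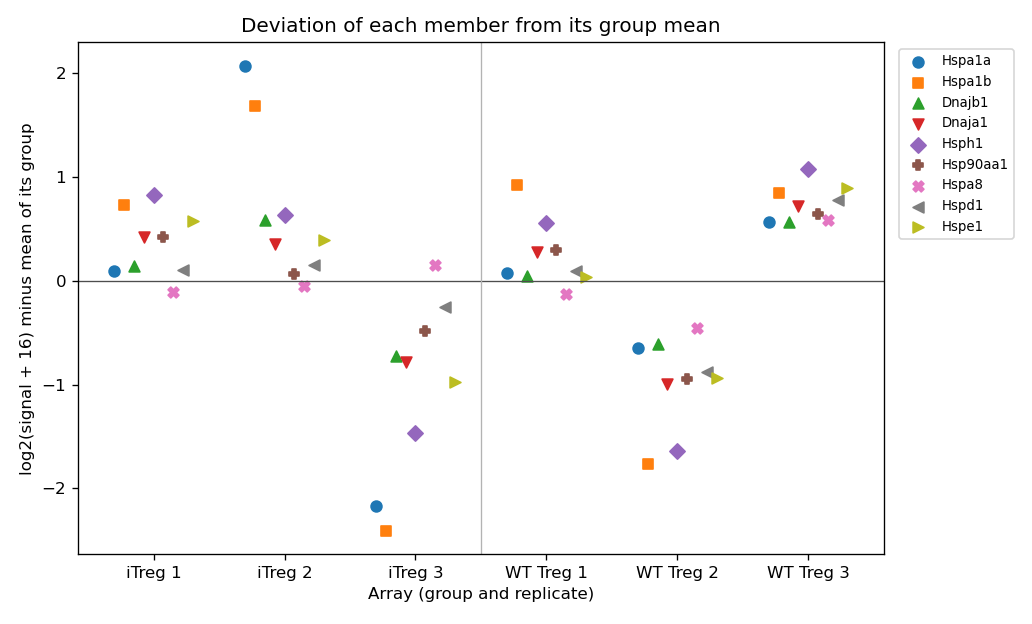
Deviation of each of 9 members from its group mean on the log2(signal + 16) scale (y axis) for each array (x axis, iTreg left of the line and WT Treg right). Points of iTreg replicate 3, except that of Hspa8, and all points of WT Treg replicate 2 lie below 0, and all points of WT Treg replicate 3 lie above 0.

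Several other measures of these arrays are set beside this pattern. The median signal was 24.3 on iTreg replicate 3 and 31.7 on WT Treg replicate 2, within a range of 21.1 to 32.3 over all arrays. For Gapdh the 3′ over 5′ signal on the log2 scale, a measure of RNA quality, was 3.06, 2.48 and 3.38 in iTreg replicates 1, 2 and 3, against 2.28, 2.53 and 2.34 in WT Treg, so in each group the array with low chaperone signals had the highest Gapdh ratio, by 0.32 in iTreg and 0.18 in WT Treg over the next array (difference of group means 0.59, exact permutation p = 0.2, two-sided, smallest possible 0.1). The same ratio for beta-actin was 0.38, 0.25 and -0.00044 in iTreg replicates 1, 2 and 3, against 0.14, 0.27 and 0.32 in WT Treg, so iTreg replicate 3 had the lowest of the 6 and WT Treg replicate 2 lay between the other WT Treg arrays. Replicate 3 of each group had the brightest spiked Cre control, 25755 in iTreg and 26746 in WT Treg, against 14982 to 19806 on the other arrays, and of these 2 arrays the iTreg one was lowest and the WT Treg one highest of its group in 7 of 9 members. The part of RNA quality in the spread was not tested.

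Markers of other cells also differed in direction between these arrays. The summed signal of 6 measured B cell markers was 790.2, 752 and 1314 in iTreg, against 879, 378 and 450.2 in WT Treg, highest on iTreg replicate 3 and lowest on WT Treg replicate 2. Most of it was Ighm, with 1194 and 275 on those arrays, while Ms4a1, Cd22 and Pax5 stayed within the range of the unspiked controls on every array. The 6 myeloid markers summed to 79.1 to 118 in iTreg and 55.0 to 57.1 in WT Treg, with 2 of 6 within the control range throughout, and the 3 measured NK markers summed to at most 21.3. Of 5 measured dendritic cell markers 4 stayed within the control range, the exception being Zbtb46 with 29.5 to 186 over the 6 arrays. The 4 stromal and endothelial markers summed to 367 to 784 in iTreg and 353 to 417 in WT Treg, most of it Pecam1, the 2 CD8 markers to 101 to 225 in iTreg and 73.2 to 107 in WT Treg, and the 2 erythroid markers to 16.8 to 86.6 in iTreg and 44.0 to 55.5 in WT Treg. The part of other cells in the chaperone signals was not tested.

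Because each group held a low array and WT Treg replicate 3 was mostly high, the direction of several members turned on which arrays were kept. Without iTreg replicate 3, 8 of 9 members were higher in iTreg with a median difference of 0.21. Without WT Treg replicate 2, 2 were higher and 7 lower, with a median of -0.42. Without WT Treg replicate 3, 8 were higher, with a median of 0.34. Without both replicate 3 arrays all 9 were higher, with a median of 0.57, led by Hspa1b at 4.09 (limma adjusted p = 0.0977). This setting drops the lowest iTreg array of 8 members and, in WT Treg, the highest of all arrays of 7 members. An upward shift is therefore built into it and is no sign of a group difference. Without both arrays with label doubts, 4 were higher and 5 lower, with a median of -0.07. Hspa1a and Hspa1b were higher in iTreg under each of these settings, and limma called no member under any of them.

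**Figure D5:**
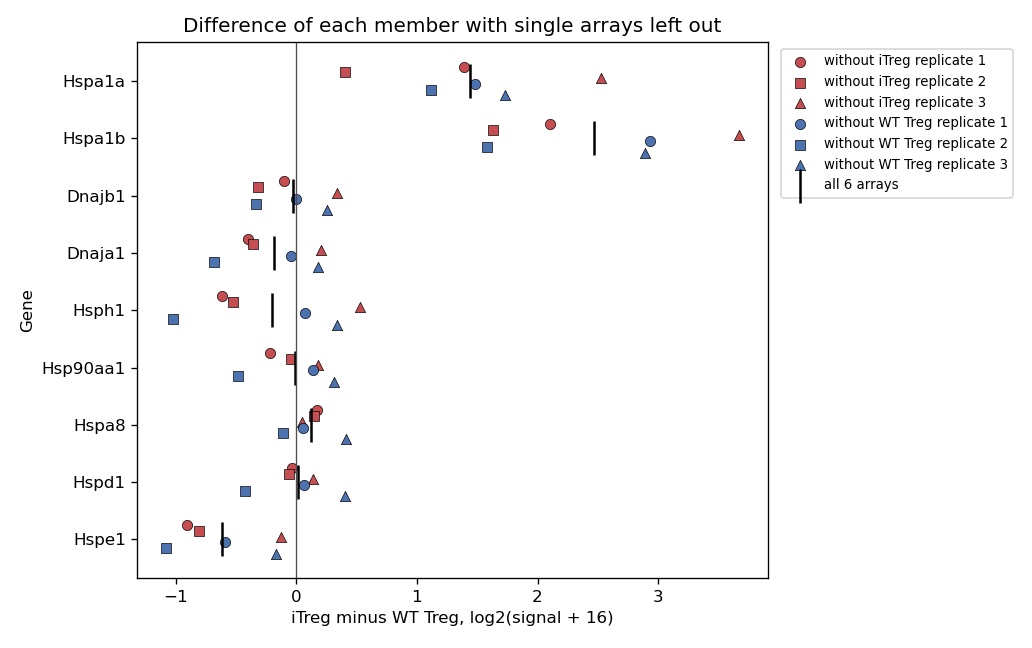
Difference of each member, iTreg minus WT Treg on the log2(signal + 16) scale, with all 6 arrays (black bar) and without each array in turn (symbols, red for an iTreg array and blue for a WT Treg array left out). Hspa1b spans 1.58 to 3.67 and Hspa1a 0.40 to 2.53, while Dnajb1, Dnaja1, Hsph1, Hsp90aa1, Hspa8 and Hspd1 lie on both sides of 0.

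The wider chaperone network leaned lower in iTreg without a call. Of 69 listed genes 63 were tested, and limma called 0 (adjusted p at 0.05). At an unadjusted p under 0.05, 7 were lower and 0 higher, where 4.58% of all genes were lower and 3% higher. Of the 63, 46 (73.0%) had a difference below 0, against 52.8% of all genes, with a median of -0.24 against -0.03. The mean log2 level of the list was 8.82, 8.91 and 8.37 in iTreg replicates 1, 2 and 3, against 9.03, 8.71 and 9.21 in WT Treg. On this mean the groups overlapped, since WT Treg replicate 2 lay below iTreg replicates 1 and 2. iTreg replicate 3 had the lowest and WT Treg replicate 3 the highest mean of all arrays. Replicates 1 and 2 interleaved, at 8.82 and 8.91 in iTreg against 9.03 and 8.71 in WT Treg. How far the lean depends on single arrays was not tested. The groups did not overlap in 7 lower and 3 higher genes, 15.9% of the list against 12.9% of all genes.

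By role, the cytosolic chaperonin and prefoldin list, which fold actin and tubulin, had the lowest median, -0.44, with 11 of 14 genes below 0. Its 2 smallest p-values were those of the prefoldin subunits Pfdn1, with 176, 124 and 118 in iTreg against 319, 291 and 395 in WT Treg (-1.18, limma adjusted p = 0.405), and Pfdn2, with 507, 699 and 415 in iTreg against 726, 1166 and 1605 in WT Treg (-1.05, limma adjusted p = 0.506). For both subunits, which were picked by p-value, the groups did not overlap. This held in 14.3% of the list and in 12.9% of all genes. The Hsp90 cochaperones had a median of -0.30 with 10 of 12 below 0. Among them Fkbp4, an immunophilin of steroid receptor complexes, differed by -1.06 (limma adjusted p = 0.613), with 412, 779 and 227 in iTreg against 937, 618 and 1213 in WT Treg, and Sugt1, an Hsp90 adaptor, by -0.51.

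The Hsp70 partner list had a median of -0.22 with 16 of 20 below 0. Beside cochaperones it holds the Hsp70 family genes Hspa2, Hspa4, Hspa4l, Hspa13 and Hspa14. Bag3, a nucleotide exchange factor that HSF1 induces, had 24.2, 15.7 and 17.9 in iTreg, within the range of the unspiked controls, against 42.6, 41.8 and 61.2 in WT Treg, a difference of -0.87 (limma adjusted p = 0.613). At this level the added 16 compresses its difference. Dnaja4, a J-protein, differed by -0.86 (limma adjusted p = 0.656). The mitochondrial list, which beside folding genes holds the protease components Clpp, Clpx, Lonp1 and Htra2, had a median of 0.03 with 5 of 11 below 0. Grpel1, which exchanges the nucleotide of mitochondrial Hsp70, had 347, 315 and 445 in iTreg against 701, 516 and 965 in WT Treg (-0.92, limma adjusted p = 0.532), and Hspa9, that Hsp70 itself, differed by -0.88 (limma adjusted p = 0.622). On the small heat shock and heat shock factor list, which beside these classes holds Hspb11 and Hsbp1, 4 of 6 tested genes were below 0. Cryab, a small heat shock protein, differed by -1.37 (limma adjusted p = 0.598), with 1.42, 6.10 and 7.92 in iTreg against 31.7, 8.12 and 124 in WT Treg, in part at background, and Hspb11 by 0.30.

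The pattern of low arrays extended to parts of this network. iTreg replicate 3 and WT Treg replicate 2 were each lowest of their group in 29 of the 63 genes (46.0%), against 12.7% of all genes. The count was 8 of 12 for the Hsp90 cochaperones and 8 of 14 for the chaperonin and prefoldin genes. It was 7 of 20 on the Hsp70 partner list, 4 of 11 on the mitochondrial list and 2 of 6 on the small heat shock and heat shock factor list. Ahsa1, which activates the ATPase of Hsp90 and is named here after its values were seen, had 1406, 1301 and 188 in iTreg, against 1875, 467 and 2159.9 in WT Treg.

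Immediate early genes, induced within minutes of a stimulus, were set beside the chaperones. The mean log2 level of 16 tested genes was 9.73, 9.08 and 8.43 in iTreg replicates 1, 2 and 3, against 9.57, 8.38 and 8.71 in WT Treg, so iTreg replicate 3 and WT Treg replicate 2 were the lowest of their groups here too. In 6 of 16 genes both arrays were lowest, against 12.7% of all genes. Jun, named after its values were seen, had 1553, 2087 and 243 in iTreg, against 1609.98, 147 and 342 in WT Treg. Fos had 2357, 421 and 3.18 in iTreg, against 1112, 22.2 and 20.5 in WT Treg. WT Treg replicate 3, which had the highest signals of 7 chaperones, was far below WT Treg replicate 1 in Fos and Jun. The list's median difference was 0.24, with 12 of 16 genes above 0 and 4 below, against -0.03 and 47.2% above 0 over all genes. Limma called 0 of the 16 after adjustment, against 0.0275% of all genes. At an unadjusted p under 0.05 there was 1, Ier2, which was lower, where 7.59% of all genes passed. Ier2, with the smallest p-value, differed by -0.99 (limma adjusted p = 0.598), and Egr1, the next, by -0.77 (limma adjusted p = 0.686).

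The genes most like the mean log2 level of Hspa1a, Hspa1b and Dnajb1 over the 6 arrays were sought among 6767 other genes with a range of at least 1 on the log2 scale, of which 21 had a Pearson r over 0.9. Crlf2, a chain of the receptor for thymic stromal lymphopoietin, had the highest (r = 0.99, rho = 1, n = 6 arrays). Its signals were 528, 822 and 151 in iTreg, against 261, 95.9 and 351 in WT Treg. It was followed by Smim10l1 (r = 0.98, rho = 1), Ccdc173 (r = 0.96, rho = 0.94), Zfp120 (r = 0.96, rho = 0.83) and Bpnt1 (r = 0.95, rho = 1). With 6 arrays and this many genes such values are a description, and the arrays share their scaling and RNA quality with every gene on them.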

How the data were processed

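Per the labels' protocols, Trizol RNA of 3 iTreg and 3 WT Treg samples was biotinylated for Affymetrix arrays, and groups come from the sample titles. Per the submitters' processing notes, the deposited intensity values come from MAS5, for which the sources used here give no version. Each array had a 2% trimmed mean of 150.0. Detection calls were not used, and the number of arrays limits the precision. Of 45101 probe sets, 34945 had 1 gene symbol and were used; 932 had several and 9160 none.

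Signals were transformed as log2(signal + 16), the probe set with the highest mean was used per gene, and genes at or above the 40th percentile, 10916 of 18193, were tested with limma 3.58.1 in R 4.3.3 (lmFit, eBayes with trend, Benjamini-Hochberg at 0.05, two-sided). A second fit had each of 20967 probe sets as a row. The fits were tested on simulated data, where 29.6% of log2 differences of 1 and 97.9% of differences of 2 were recovered. A count of 0 called thus does not exclude differences of 1. Shares at the spread of single members are not given. Named were the members, the 2 smallest p-values of each list, the 5 genes most like the inducible members, and genes stated as chosen after their values were seen. The members and lists were chosen with earlier results of these data known. Same-numbered arrays had deviations from their group means that correlated at 0.17, 0.05 and 0.13, and differently numbered arrays at -0.17 to 0.05. These values do not settle whether the numbers are pairs. The main fit did not take them as pairs, and a fit with the number as a block is given below.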

Additional observations from a re-analysis of the deposited data

How the results depend on the processing

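No chaperone gene or probe set, and none of the wider network, was called by limma under any of the 20 alternatives run (18 for probe sets), in addition to the main setting; Hspa1a and Hspa1b stayed above 0 throughout, Hspa1a not being tested with the 60th percentile filter and Hsph1 having no probe set specific by name. Hspa1b ranged from 0.53 with probe sets specific by name to 4.09 without both replicate 3 arrays, and was 2.78 with a pseudocount of 1 and 2.02 with 64. All genes called numbered 3 in the main setting, 0 with a pseudocount of 1, 0 without a filter, 8 with a common median, 14 with array weights, 0 without both arrays with label doubts, 0 without both replicate 3 arrays, and 0 to 1 without single arrays. The cause of these moves was not tested. With the replicate number as a block, as with no block, 3 genes were called; Hspa1b differed by 2.47 with adjusted p = 0.449, against 0.598 in the main setting.

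Some members whose difference was small turned sign. With quantile normalization Hsp90aa1 was at 0.00094 and Hspa8 at -0.0031. With a common median Dnajb1 was at 0.062 and Hsp90aa1 at 0.078. Array weights gave 0.25 for Dnajb1, 0.18 for Dnaja1, 0.42 for Hsph1 and 0.28 for Hsp90aa1. Without both replicate 3 arrays Dnajb1 was at 0.62, Dnaja1 at 0.57, Hsph1 at 1.07, Hsp90aa1 at 0.55 and Hspe1 at 0.32. That setting drops mostly low iTreg and high WT Treg values. Without single arrays the differences ranged from -0.33 to 0.33 for Dnajb1, -0.68 to 0.21 for Dnaja1, -1.02 to 0.53 for Hsph1, -0.48 to 0.31 for Hsp90aa1, -0.11 to 0.42 for Hspa8, -0.42 to 0.40 for Hspd1 and -1.08 to -0.13 for Hspe1. Signals near those of unspiked controls limit Hspa1a, Hspa1b, Bag3 and Cryab, and 3 arrays a group limit every comparison.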
